A study of Mus musculus with 16 samples.

Results

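The regions described here are the 819 of 8338 (9.82%) that stood at the lowest listed coverage in 3 of the 4 libraries crosslinked for 680 s. They were chosen by measured values. Their coverage was 3 with 2.6 mW of laser power and 4.2x Dazl, 2 with 2.6 mW and 1x Dazl, and 2 with 1 mW and 4.2x Dazl. A region is a set of listed intervals at most 10 nt apart, and its coverage is the sum of interval width times listed value, in the authors' normalized units. In the fourth library of 680 s, with 1 mW and 1x Dazl, which the rule left out, 633 of them were at the lowest value of 1 and 186 were at 2. Whether these lowest values are measured coverage or a default given to some sites before deposit is not stated in the sources used here and was not tested. The regions are called lowest-value regions below, and the other 7519 are called other regions.

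Dazl is an RNA-binding protein of germ cells that is needed for the development of sperm and eggs. It binds RNA through an RNA recognition motif that prefers short GUU-containing sequences, and many of its known sites lie in 3′ untranslated regions of messenger RNAs, where it affects stability and translation. Crosslinking with ultraviolet light joins the protein covalently to the RNA it touches, so crosslinks at a site can accumulate with time, light and protein.

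The libraries come from KIN-CLIP, a form of iCLIP with a pulsed ultraviolet laser, in 1 clone of GC-1 spg, a mouse line derived from spermatogonia, in which doxycycline induces Dazl. The conditions are 30, 180 and 680 s of light at 2.6 mW or 1 mW, with 4.2x or 1x Dazl, and each of the 12 conditions is 1 library with no replicate. The 4 samples of 0 s were not analysed here, and values without crosslinking are therefore missing. Library totals ran from 11271 (180 s, 1 mW, 1x) to 252932 (680 s, 2.6 mW, 4.2x). They did not rise steadily with time. From 30 to 180 s the total fell from 14910 to 11271 with 1 mW and 1x Dazl. It also fell from 74552 to 48334 with 1 mW and 4.2x, and from 92228 to 86071 with 2.6 mW and 1x. With 2.6 mW and 4.2x it rose from 173943 to 185659. The depth in reads is unknown, and the files give no strand.

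The line was checked against markers. Of 15 germ cell markers, Sall4 and Mov10l1 had a region, while Dazl itself had none. Of 7 fibroblast markers, Col1a1 had 43 regions, Col1a2 had 6 and Pdgfra had 2, all of them other regions. Of 7 Sertoli cell markers Wt1 and Dhh had a region, and of 4 endothelial markers Kdr had one, none of them a lowest-value region. No Leydig cell or macrophage marker had a region.

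The letters under most lowest-value regions were not read, because no genome of the build was used. Of the lowest-value regions, 39 lay wholly inside a RefSeq promoter window of GRCm38.p6, the assembly called mm10, from 250 bases before to 50 after a transcript start, as did 111 other regions. Only 11 of the 39 and 25 of the 111 began downstream of that start. The rest began before it, so their letters need not be part of that transcript. The sequences below, credited to RefSeq, are a selection of regions that lie near a transcript start of the gene they were placed in. They are shown so that both sets can be read beside their values. Others that meet this are not printed, so the lines do not show how often either set holds the motif. All printed sequences are on the strand of the gene. Capitals mark GTT, the DNA form of the GUU in Dazl sites, or AAC, which is GTT on the opposite strand.
Kdm8, lowest value, chr7:125444635-125444651: gctccgcGTTcctctag
Nkx2-4, lowest value, chr2:147085302-147085318: cccttctccGTTtccga
Olfr1026, lowest value, chr2:85923291-85923303: acaGTTacagagt
Olfr491, lowest value, chr7:108316922-108316936: gacaaaGTTcatcct
Kcnmb2, lowest value, chr3:31902642-31902658: gcttttaaaAACagtct
Kcnmb2, lowest value, chr3:31902705-31902719: gtctagcgtgcctgt
Slco4c1, lowest value, chr1:96872155-96872170: gaaaagaAACcagcct
Sstr3, lowest value, chr15:78544413-78544428: acccccAACtgggtgc
Tmem267, lowest value, chr13:119488246-119488262: acgggacGTTttccacg
Tmem267, lowest value, chr13:119488442-119488458: ccgcctaccgcgaggcg
Map7d2, lowest value, chrX:159414560-159414573: gggtccggtgcggc
Arf5, other region, chr6:28423629-28423645: ccggccgGTTccagccc
Acap3, other region, chr4:155891861-155891877: cggctatGTTtcctgtc
Atp6v0e, other region, chr17:26676405-26676421: agcctctGTTgacactt
Adgrb2, other region, chr4:129984828-129984844: cgggcccggcccgcgca

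GTT on either strand was found in 20 of the 39 lowest-value regions (51.3%) and in 66 of the 111 other regions (59.5%). On the strand of the window alone it was in 12 (30.8%) and 43 (38.7%). Of all 17-nt stretches of the 32851 promoter windows, 31.0% held it on either strand and 16.5% on the strand of the window, and for 16-nt stretches the shares were 29.3% and 15.6%. Among the 17 lowest-value regions in the window of their own gene, 11 held it (64.7%). The matching share of other regions is not given, so this value does not compare the sets. Both sets thus held the motif more often than stretches of the same length, and the difference between the sets was not tested. At 680 s, 2.6 mW and 4.2x Dazl the lowest-value regions printed stood at 3 each, while Arf5, a small GTPase of the Golgi, stood at 54, Atp6v0e, a proton pump subunit, at 44, Adgrb2 at 39 and Acap3 at 25.

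Of the 819 lowest-value regions, 3 overlapped hairpins of microRNAs in a table of 1005 hairpins, as did 4 of the 7519 other regions. The mature sequences that the 3 touch are given with the seed, bases 2 to 8, in capitals.
mmu-miR-431-3p: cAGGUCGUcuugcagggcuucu
mmu-miR-31-3p: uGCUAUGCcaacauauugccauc
The Mir431 region, chr12:109590491-109590507, lay wholly within the hairpin and overlapped the mature form by 6 nt. It was placed in Rtl1, and without strand its coverage cannot be given to either gene. Its coverage at 30, 180 and 680 s was 3, 3 and 3 with 2.6 mW and 4.2x Dazl, 2, 2 and 2 with 2.6 mW and 1x, 1, 1 and 2 with 1 mW and 4.2x, and 1, 1 and 1 with 1 mW and 1x. In Mir31, chr4:88910563-88910578 and chr4:88910594-88910610 overlapped the mature form by 2 and 6 nt, and both also lay in Gm49890.

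Few other regions shared the lowest value. At 680 s, 2.6 mW and 4.2x Dazl, 819 lowest-value regions and 4 others stood at 3, whereas other regions had a median of 28 and reached 868. With 2.6 mW and 1x Dazl, 6 other regions shared the value of 2, beside a median of 23 in the other regions. With 1 mW and 4.2x Dazl, 16 others shared the value of 2, beside a median of 17. In the library of 1 mW and 1x Dazl, 666 regions were at 1, and 633 of them (95.0%) were lowest-value regions of the other 3 libraries. In the 3 libraries of the rule the regions stand apart by the rule's own values, and in the fourth they adjoin the main distribution, as the histograms show.

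**Figure D1:**
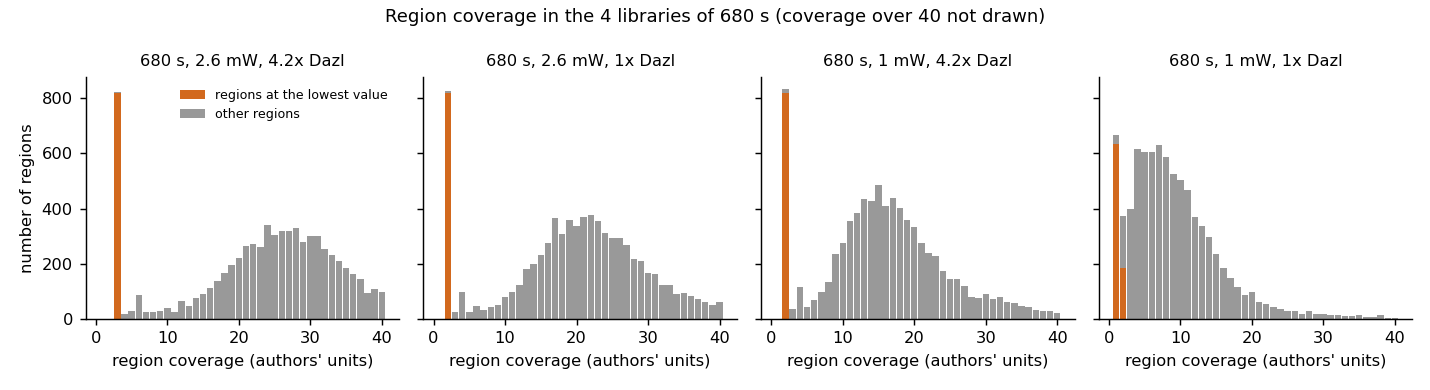
Number of regions (y axis) by region coverage in the authors' units (x axis) in each of the 4 libraries of 680 s, with the 819 lowest-value regions in orange and other regions in grey. The orange bars stand at 3, 2, 2 and, with 1 mW and 1x Dazl, at 1 and 2, while other regions have medians of 28, 23, 17 and 9.

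The regions just inside and just outside the rule were few. Another 20 regions were at the lowest value in 1 or 2 of the 3 libraries. Among them a region of Ttn, the giant sarcomere protein titin, had 3, 3 and 2 with 2.6 mW and 4.2x, 2.6 mW and 1x, and 1 mW and 4.2x Dazl, and a region of Sowaha had 4, 2 and 2. A further 6 regions were exactly 1 above the lowest value in all 3 libraries, with 4, 3 and 3, and 5 of them lay in Mov10l1, Lpar3, Acpp, Grm2 and Arr3. Mov10l1 is a helicase of the piRNA pathway in germ cells.

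At the shorter times the regions ranged from 1 to 4. With 2.6 mW and 4.2x Dazl, 282, 150 and 387 regions were at 1, 2 and 3 at 30 s, and 101, 348 and 370 were at 1, 2 and 3 at 180 s. In the series of 2.6 mW and 1x Dazl, 561 regions were at 1 at 30 s and 519 at 180 s, and 8 regions reached 4 at 30 s. With 1 mW, 568 (30 s) and 777 (180 s) were at 1 with 4.2x Dazl, against 813 and 819 with 1x Dazl. In 6 of these 8 libraries most regions thus stood at 1, the exceptions being both libraries of 2.6 mW and 4.2x Dazl. The regions made up between 0.80% (680 s, 2.6 mW, 1x) and 7.27% (180 s, 1 mW, 1x) of the library totals, and the larger shares were in the libraries with the smaller totals.

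**Figure D2:**
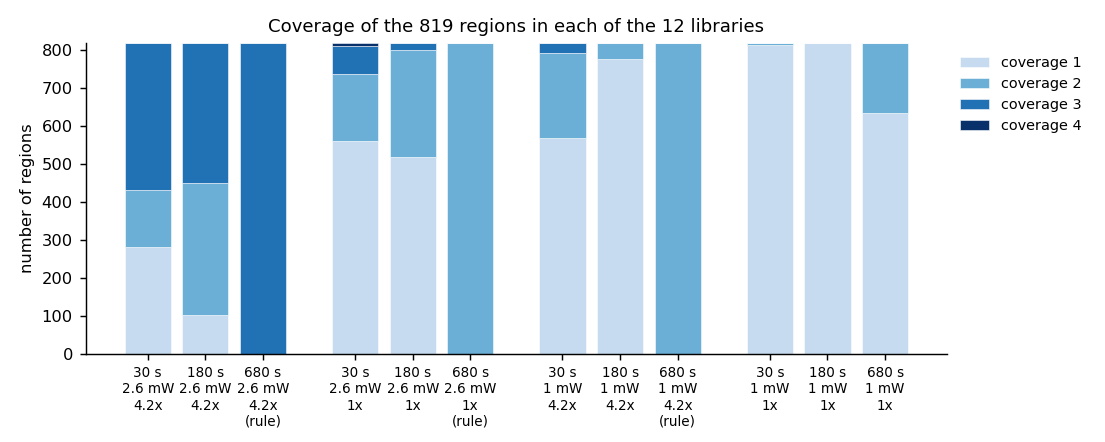
Number of the 819 lowest-value regions (y axis) with a coverage of 1, 2, 3 or 4 in each of the 12 libraries (x axis: time, laser power and Dazl level, "rule" marking the 3 libraries that chose the regions). All 819 stand at 3, 2 and 2 in the rule's libraries, all 819 stand at 1 after 180 s under 1 mW and 1x Dazl, and 387 stand at 3 after 30 s under 2.6 mW and 4.2x Dazl.

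The 12 values of a region fell into 108 patterns. The commonest, in 107 regions, was 1, 2 and 3 at 30, 180 and 680 s under 2.6 mW and 4.2x Dazl, 1, 1 and 2 with 2.6 mW and 1x, 1, 1 and 2 with 1 mW and 4.2x, and 1 throughout with 1 mW and 1x. The next differed only in a value of 1 at 180 s under 2.6 mW and 4.2x Dazl and held 78 regions. With 2.6 mW and 4.2x Dazl, 432 regions were lower at 30 s than at 680 s, 387 were equal (47.3%) and 0 were higher. Of the 7303 other regions with at least 10 at 680 s in that library, 45.4% were equal and 0 of all other regions were higher. With 2.6 mW and 1x Dazl, 82 lowest-value regions (10.0%) were higher at 30 s than at 680 s, as were 27 with 1 mW and 4.2x Dazl and 1 with 1 mW and 1x. These values follow from the rule at 680 s and are a description. The 30 s and 180 s libraries entered no part of the rule, but in the 2.6 mW, 4.2x series the value of 3 at 680 s was also the highest that any of these regions had at 30 or 180 s.

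The 30 s and 180 s libraries were used to test laser power and Dazl level over all regions with limma on log2(coverage + 1), adjusted by Benjamini-Hochberg. Of all regions, 77.4% were called higher with 2.6 mW than with 1 mW, and of the 819 lowest-value regions 257 were, with 0 called lower. The median log2 difference was 0.35 in the lowest-value regions and 1.66 in all regions. For Dazl level, 58.1% of all regions were called, 4840 higher and 1 lower with 4.2x than with 1x Dazl, and 63 of the lowest-value regions were, all higher. Here the median log2 difference was 0.25 in the lowest-value regions and 1.21 in all regions. Values of 1 to 4 allow only small differences, since 3 against 1 is 1.00 on this scale, and whether the lowest-value regions differ from the rest in these effects was not tested.

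The calls depended on the scale and on single libraries. With libraries scaled to equal medians the median of all regions became -0.32 for laser power and -0.35 for Dazl level, and the lowest-value regions stood at -1.19 and -1.03. Limma then called 127 of the 819 for laser power, all lower with 2.6 mW, against 836 of all 8338 regions, and 0 for Dazl level, where 508 had an unadjusted p under 0.05. The count of 257 was 142 without the library of 30 s, 2.6 mW and 4.2x Dazl and 146 without that of 180 s, 1 mW and 4.2x. The count of 63 was 6 and 11 without one or other 2.6 mW, 4.2x library (30 and 180 s), 7 and 16 without those of 2.6 mW and 1x, 10 and 114 without those of 1 mW and 4.2x, and 9 without that of 30 s, 1 mW and 1x. With libraries paired by matched condition it was 17. The model had 4 residual degrees of freedom and takes libraries as independent. The ordering of values within the 2.6 mW, 4.2x series goes against that, so the p-values may be too small or too large.

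The regions called with the largest difference lay in Pakap, an A-kinase anchoring protein, and Sptan1, a spectrin chain. At chr4:57896734-57896750 in Pakap, coverage at 30 and 180 s was 3 and 3 with 2.6 mW and 4.2x Dazl, 4 and 3 with 2.6 mW and 1x, and 1 in the 4 libraries of 1 mW. The region of Sptan1, chr2:30005649-30005663, had the same values. Every value with 2.6 mW was above every value with 1 mW. The log2 difference was 1.08 ± 0.21 (SE), with a limma adjusted p of 0.00202 for each. A region of Cdkl4, chr17:80523912-80523928, had 3, 3, 3 and 3 with 2.6 mW against 1, 1, 1 and 1 with 1 mW, a log2 difference of 1.00 ± 0.19 (SE) with a limma adjusted p of 0.0020. For Dazl level the largest differences were in Acan, the cartilage proteoglycan aggrecan, and Nxpe3. In the Acan region, chr7:79092385-79092400, coverage with 4.2x Dazl was 3 and 3 at 30 and 180 s of 2.6 mW and 3 and 2 of 1 mW, against 1 in the 4 libraries of 1x. Its log2 difference was 0.90 ± 0.20 (SE), with a limma adjusted p of 0.0069.

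The lowest-value regions were narrower than the rest, but width is not independent of the rule. Coverage sums width times value, so a low value limits how many positions a region can have listed in a library. Of 819, 374 (45.7%) were 17 nt wide, 445 were 10 to 16 nt wide and 0 were wider, whereas 85.4% of other regions were 17 nt wide and 1039 were wider. Summed over the 12 libraries, a lowest-value region held 16 to 27 units, with a median of 20, against a median of 150 in other regions. This sum averaged 20.5 units in regions of 17 nt and 19.5 in those of 16 nt. Another 115 regions had 680 s values that were exact whole multiples of the lowest ones in the 3 libraries. Of these, 75 were at 2 times (6, 4 and 4), 10 at 3 times, and 73 were wider than 17 nt. They are called whole-multiple regions and are counted apart from the rest, and their width is likewise tied to the sums that chose them.

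In genes, 714 lowest-value regions were placed, in 478 of 3203 genes that held any region. They were 8.89% of the 7593 regions lying in 1 gene, 15.9% of the 245 in 1 protein-coding gene among several, 14.0% of the 314 in several genes and 32.8% of the 186 in no gene. By type of gene, 705 of 7694 regions of protein-coding genes were lowest-value regions (9.16%), as were 4 of 131 regions of long noncoding RNA genes. By chromosome their share ran between 6.64% on chromosome 19 and 16.1% on chromosome 12, apart from the Y chromosome with 1 region, an other region.

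Most lowest-value regions lay in genes with no other kind of region. In 412 genes every region was a lowest-value region, and these genes held 564 of the 714 (79.0%). Another 32 genes held 90 of them and 44 whole-multiple regions and nothing else, so that 654 (91.6%) lay in genes without any other kind of region. Only 34 genes held lowest-value regions (60) beside 87 higher ones. Of the 412 genes, 295 had 1 region, 90 had 2, 21 had 3, 4 had 4 and 2 had 5. Of 314 neighbouring pairs of regions of 1 gene with at least 1 lowest-value region, both were of that kind in 220 (70.1%). The share of lowest-value regions was 18.7% in genes with 1 region, 14.2% in genes with 2, 6.81% in genes with 3 to 4, 3.17% in genes with 5 to 9 and 2.91% in genes with 10 to 62.

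Septin11, a filament-forming GTPase of the cytoskeleton, had the most, with 10 of its 11 regions. They lay on chromosome 5 between 93117233 and 93173996, and the remaining region, chr5:93172690-93172706, was at 2 times the lowest values. One of the 10, chr5:93171919-93171935, had 3, 3 and 3 at 30, 180 and 680 s under 2.6 mW and 4.2x Dazl, 3, 2 and 2 with 2.6 mW and 1x, 2, 2 and 2 with 1 mW and 4.2x, and 1, 1 and 1 with 1 mW and 1x. Its 12 values thus spanned 1 to 3, the full range of the gene's 10 regions. Marchf6, a ubiquitin ligase of the endoplasmic reticulum membrane, held 8 among 11, with 3 whole-multiple regions. Myrf, a transcription factor of myelin genes, held 7 among 8, and Rflnb, a filamin-binding protein, held 5 among 6, each with 1 whole-multiple region.

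Among genes with nothing but lowest-value regions, Pakap and Ybx3 had 5 each. Ybx3 is a cold-shock RNA-binding protein of the testis and other tissues. Its regions lay 28, 71, 139, 206 and 3548 nt from the 3′ end of the gene. With 2.6 mW and 4.2x Dazl all 5 were at 3 at 680 s, and at 30 s 4 were at 3 and 1 was at 2. Cacna1f, a calcium channel subunit of the retina, Cactin, Ky and Prelid3a had 4 each. Adgrv1, an adhesion receptor of the inner ear, Ahnak2, Arhgef28 and Babam1 had 3 each.

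Members of a family could differ. Besides the 10 of 11 in Septin11, Septin5 held 1 of 1 and Septin7 1 of 3 with 2 whole-multiple regions, whereas the single region of Septin2 was an other region with a coverage of 59 at 680 s, 2.6 mW and 4.2x Dazl. Marchf6 held 8 of 11, against 0 of 6 in Marchf5, whose regions summed to 169 in that library. Of the genes with Selen symbols, which name selenoproteins, Selenoi held 8 of 21, Selenof 4 of 5 and Selenot 1 of 3. In the RefSeq table, Sept11, March6, Ept1, Sep15, Mllt4 and Fam101b are listed as other names of Septin11, Marchf6, Selenoi, Selenof, Afdn and Rflnb, and Sept2 and March5 as other names of Septin2 and Marchf5. Whether gene names had a part in which sites received the lowest values was not tested.

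Gene families chosen after their values were seen differed widely. Olfactory, vomeronasal and taste receptors, the chemosensory receptors of sensory epithelia, held 23 regions in 18 genes, and all 23 were lowest-value regions. Olfr464 had 3, and Olfr1351, Olfr283 and Olfr594 had 2 each. In Olfr1026, chr2:85923291-85923303, coverage at 30, 180 and 680 s was 1, 2 and 3 with 2.6 mW and 4.2x Dazl, 2, 1 and 2 with 2.6 mW and 1x, 1, 1 and 2 with 1 mW and 4.2x, and 1, 1 and 1 with 1 mW and 1x. In Olfr491, chr7:108316922-108316936, it was 1, 1 and 3, then 1, 1 and 2, then 1, 1 and 2, then 1, 1 and 1 in the same order. Both receptors were at or near the lowest value in each of the 12 libraries.

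Among the other families and symbol groups, adhesion G protein-coupled receptors held 9 lowest-value regions of 10, with Adgrb2 the one gene that also had a higher region. Voltage-gated sodium and calcium channels held 12 of 14, with 4 in Cacna1f, 3 in Scn3b and 2 in Cacna1c. Potassium channels held 11 of 23, with 2 each in Kcnf1, Kcnk3, Kcnmb2 and Kcns1. The cilia and flagella genes with Cfap symbols held 4 of 4, axonemal dynein heavy chains 3 of 6, and small integral membrane proteins with Smim symbols 8 of 9. Genes with a Rik or Gm number for a symbol held 29 of 85. In contrast, 0 of 80 regions of Zfp zinc finger genes and 0 of 66 regions of collagens were lowest-value regions. Whole-multiple regions were 6 of these 80 and 1 of these 66, against 107 of 7838 over all genes.

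Gene lists by function, also drawn up with earlier results known, are read against 9.11% over all genes. The lists are short selections, and the cytoskeleton and extracellular matrix list leaves out Septin11, Sptbn1, Sptan1, Rflnb, Acan and the laminin gene Lama1, which hold lowest-value regions. Of the 309 regions of its genes 0 were lowest-value regions, as were 0 of 45 in translation factors, 0 of 36 in cell cycle genes, 0 of 30 in stress and immediate early genes and 0 of 13 in proteasome genes. Of 198 regions in genes of RNA-binding proteins and splicing factors 9 were (4.55%), 5 in Ybx3 and 4 in the polypyrimidine tract-binding protein gene Ptbp3. Of 60 in ribosomal protein genes 3 were, in Rps3a1 and Rpl37rt. In messenger RNA decay genes the count was 1 of 46, in Ago2, the slicing Argonaute protein, and in nuclear and small noncoding RNAs 1 of 112, in Mir22hg. Vesicle traffic genes held 4 of 152, ubiquitin enzymes 11 of 178, without Marchf6, which the list leaves out, and zinc finger proteins of the list 3 of 97.

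Shares nearer or above that of all genes were those of solute carriers, membrane transporters with 19 of 157 (12.1%), and chromatin regulators with 10 of 90 (11.1%). Slc51a, a bile acid and steroid transporter subunit, held 3 of 3. Kmt2d, a histone H3 methyltransferase, held 3 of 5, Kat7, a histone acetyltransferase, 2 of 3 and Kdm8 2 of 2. Of the histone list 1 of 14 was in H1f7, a linker histone of spermatids.

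The germ cell list had regions in 4 genes, and 3 of these were lowest-value regions. They were in Ret, the receptor of the factor GDNF that maintains spermatogonial stem cells, in Rhox13, a homeobox gene of the testis, and in Sall4, a zinc finger factor of undifferentiated germ cells. In Sall4, chr2:168754926-168754942, coverage at 30, 180 and 680 s was 2, 2 and 3 with 2.6 mW and 4.2x Dazl, 2, 2 and 2 with 2.6 mW and 1x, 1, 1 and 2 with 1 mW and 4.2x, and 1, 1 and 1 with 1 mW and 1x. In Ret, chr6:118152660-118152675, it was 3, 3 and 3, then 2, 1 and 2, then 2, 1 and 2, then 1, 1 and 1 in the same order. The fourth gene, Mov10l1, was among those 1 above the lowest values. All 4 germ cell genes were therefore at or next to the lowest value at 680 s. Each held 1 region, and over all genes with 1 region 18.7% of the regions were lowest-value regions. With 4 regions in a list drawn up with earlier results known, this does not describe germ cell genes in general.

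**Figure D3:**
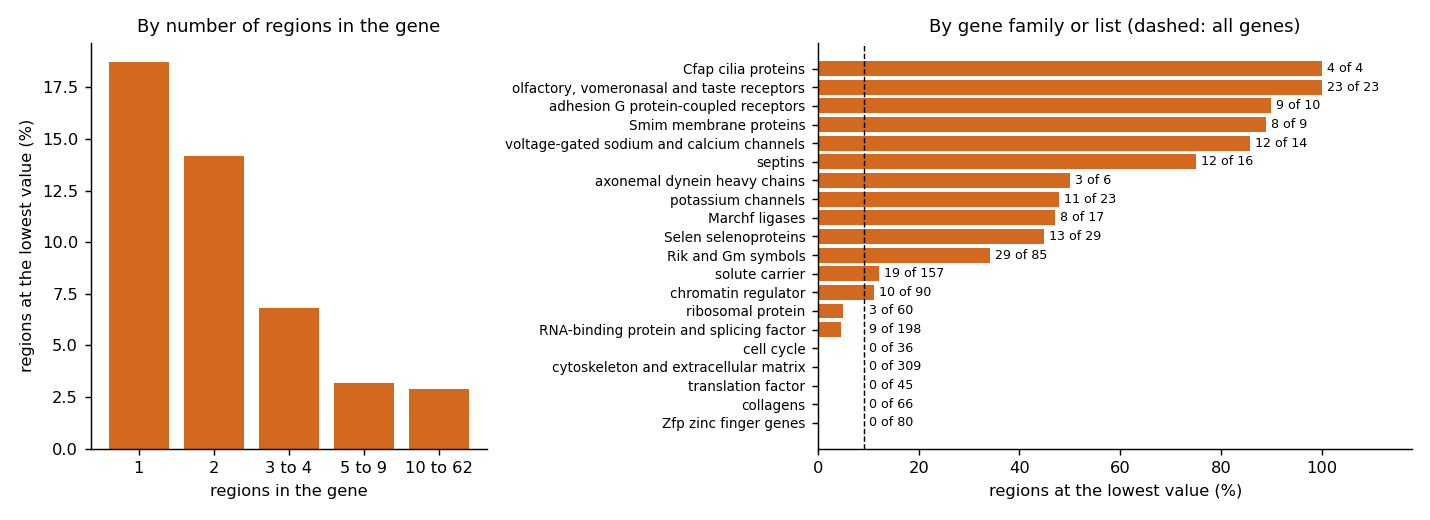
Share of regions that are lowest-value regions, in percent, by number of regions in the gene (left, x axis) and by gene family or list (right, y axis), with counts beside the bars and the share over all genes dashed. The share is 18.7% in genes with 1 region and 2.91% in genes with 10 to 62, and runs between 0 of 309 regions for the cytoskeleton and extracellular matrix list, which leaves out Septin11 and Sptbn1, and 23 of 23 for chemosensory receptors.

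The 34 genes with both kinds of region allow a comparison within a gene. Their higher regions had a median coverage of 22 at 680 s, 2.6 mW and 4.2x Dazl, against 28 over all other regions. In 30 of them the lowest-value and the higher regions formed 2 unbroken runs along the gene, the only outcome possible with 1 region of each kind. Of the 19 genes with more than 2 regions this was so in 15, most of them with 1 region of one kind. Among genes with at least 2 of each kind, Bpnt2, Emc1 and Rnf11 had 2 runs, whereas Afdn, Selenoi and Sptbn1 had 3. The nearest pair of the 2 kinds lay 21 nt apart in Ttn and had a median distance of 953.5 nt. In 9 genes it was at most 100 nt, and in 8 of these the near region was itself at 6 or less at 680 s, 2.6 mW and 4.2x Dazl, the exception being Selenoi with 24. The near region of Ttn was at the lowest value in 2 of the rule's 3 libraries. In Cilp2, for example, the lowest-value region was 34 nt from a region with 5, 3 and 4 at 680 s under 2.6 mW and 4.2x, 2.6 mW and 1x, and 1 mW and 4.2x Dazl.

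Selenoi, an enzyme of phosphatidylethanolamine synthesis, had the highest mean coverage among genes with a lowest-value region (166 per library). Its 8 lowest-value regions formed a block of chromosome 5 between 30267678 and 30268977, from 3453 to 4737 nt before the 3′ end. On the upstream side of the block 3 regions had 27, 26 and 24 at 680 s, 2.6 mW and 4.2x Dazl, and on the downstream side, beyond a whole-multiple region at 6, 9 regions had 13 to 72. At the upstream edge, chr5:30267678-30267693 had 3, 3 and 3 at 30, 180 and 680 s under 2.6 mW and 4.2x Dazl, 2, 1 and 2 with 2.6 mW and 1x, 1, 1 and 2 with 1 mW and 4.2x, and 1, 1 and 1 with 1 mW and 1x. The higher region next to it, chr5:30267626-30267642, had 24, 23 and 24, then 20, 20 and 23, then 6, 6 and 15, then 1, 1 and 4 in the same order. The 2 regions lay 35 nt apart, and the higher one exceeded the other in each library except those of 30 and 180 s with 1 mW and 1x Dazl.

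Other genes had other arrangements. In Afdn, which links nectins to actin, 6 of 7 lowest-value regions lay 70 to 891 nt from the 3′ end and the other 44061 nt from it, and 3 regions with 8, 9 and 31 lay 1586 to 1702 nt from it. In Sptbn1, a beta spectrin, lowest-value regions lay both 174 to 1029 nt and 14471 to 21252 nt from the 3′ end, with 2 regions at 19 and 21 between them. In Rbms1, an RNA-binding protein, the 1 lowest-value region was 709 nt from the 3′ end and 7 regions with 18 to 77 were 1760 to 2736 nt from it. In Bpnt2, a phosphatase of the Golgi, 2 lowest-value regions lay 115 and 225 nt from the nearer gene end, and 13 regions with 16 to 33 lay 1721 nt or more from it. In Rnf11, a RING ligase adaptor, 3 lay within 805 nt of the nearer end, and 4 regions with 25 to 28 lay 1094 to 1356 nt from it.

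**Figure D4:**
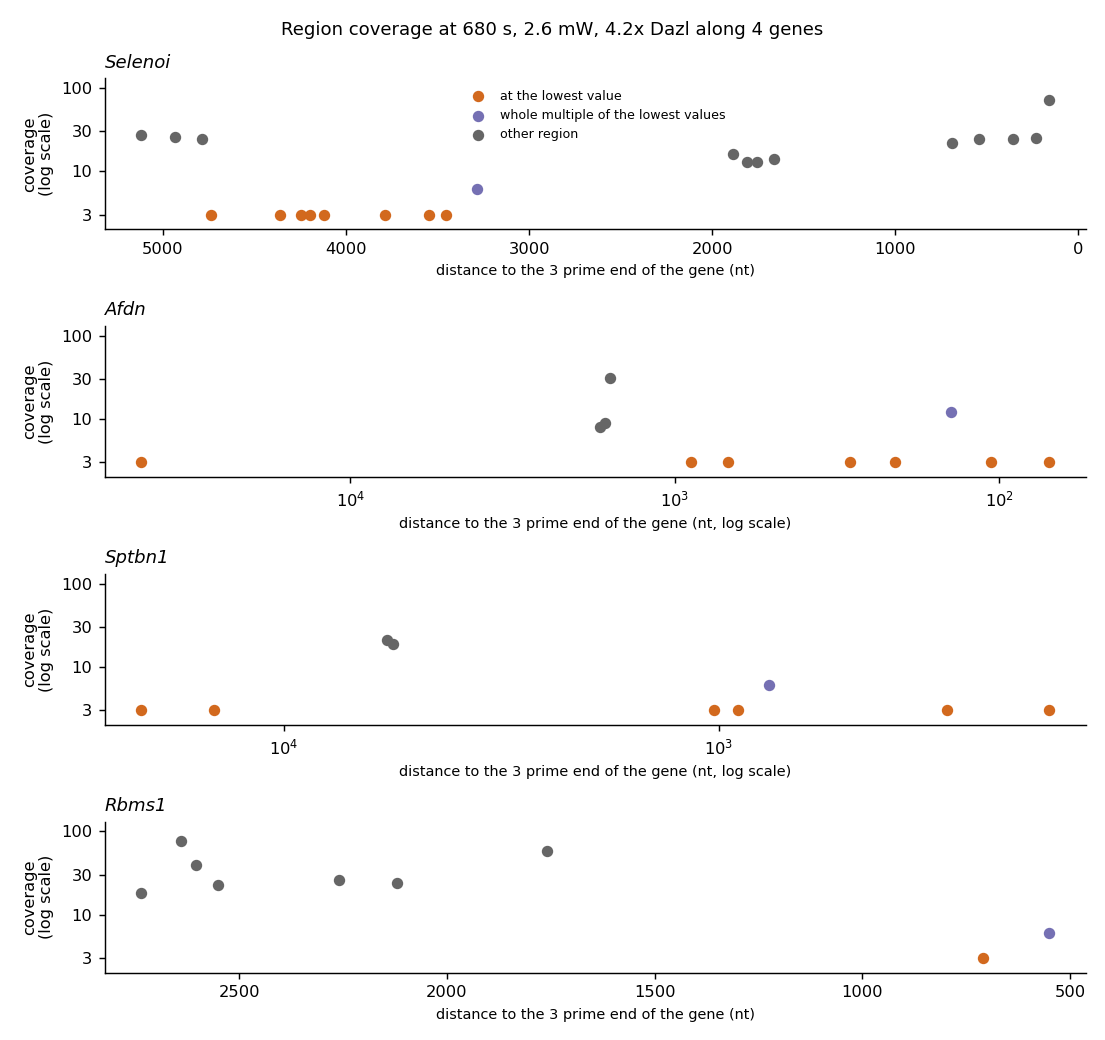
Coverage of each region at 680 s, 2.6 mW and 4.2x Dazl (y axis, authors' units, log scale) by distance to the 3′ end of the gene in nt (x axis, log scale for Afdn and Sptbn1) in 4 genes with both kinds of region. The lowest-value regions of Selenoi, all at 3, form a block at 3453 to 4737 nt with higher regions of 13 to 72 on both sides, while in Rbms1 the 1 lowest-value region is nearer to the 3′ end than all 7 higher ones.

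The 2 kinds also lay far apart in some genes. In Cdh4, a cadherin, the lowest-value region was 255241 nt from a region with a coverage of 41, and in Sorcs3 and Nrg3 the distances were 80635 and 68701 nt. Lowest-value regions deep inside a gene included those of Opcml, a neuronal adhesion protein, 521135 nt from the nearer gene end, Nrg3, a neuregulin, 461591 nt, Ctnnd2 359825 nt and Dlgap1 340588 nt. In Opcml, chr9:28404260-28404275, coverage at 30, 180 and 680 s was 1, 2 and 3 with 2.6 mW and 4.2x Dazl, 1, 1 and 2 with 2.6 mW and 1x, 2, 1 and 2 with 1 mW and 4.2x, and 1 throughout with 1 mW and 1x.

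Positions within genes were compared as a description, since regions of 1 gene are not independent and exons were not annotated. Among regions with a known gene strand, 577 lowest-value regions had a median distance to the 3′ end of 3992 nt, against 1604 nt in 5638 other regions. Within 1000 nt of the 3′ end lay 27.4% and 38.3% of them, and nearer to the 5′ end lay 32.2% and 15.1%. Among genes with 1 region the medians were 7413 nt for 229 lowest-value regions and 4826 nt for 993 other regions, with 20.5% and 19.6% within 1000 nt of the 3′ end. In genes with only lowest-value regions the median was 5059 nt (n = 459).

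Within genes holding both kinds the order of the medians was the other way, but not every measure was. In the 34 genes with higher regions, 47 lowest-value regions had a median distance to the 3′ end of 1268 nt, against 2062 nt for 62 higher regions. Within 1000 nt of that end lay 42.6% and 24.2% of them, but within 3000 nt 55.3% and 62.9%. By gene median the lowest-value regions were nearer to the 3′ end in 15 of the 25 genes with a known strand and farther in 10. Over the 66 genes that held any other region, whole-multiple ones included, the median distance to the nearer gene end was 1271.5 nt for 150 lowest-value regions and 1586.5 nt for 136 others, a difference of -315 nt. Among regions exactly 17 nt wide this difference was 702.5 nt. That setting also changed which genes held both kinds, and the cause of the reversal was not tested.

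**Figure D5:**
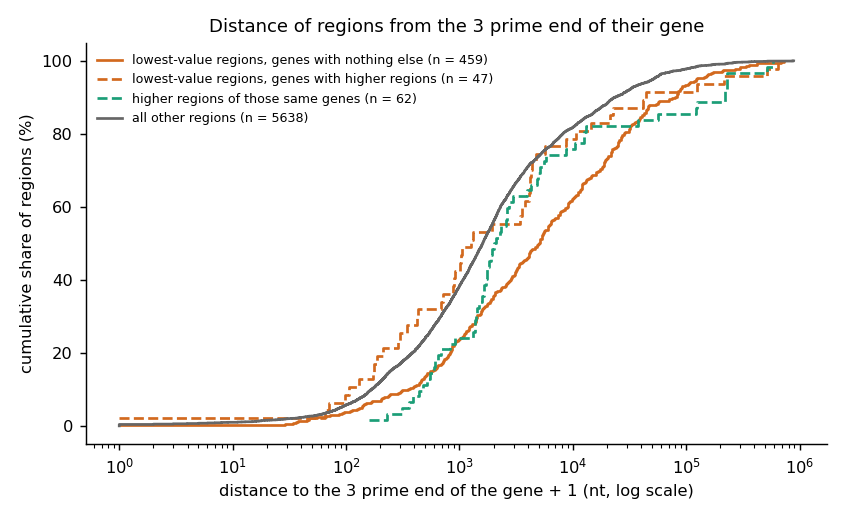
Cumulative share of regions in percent (y axis) by distance to the 3′ end of the gene plus 1, in nt on a log scale (x axis), for lowest-value regions of genes with nothing else (orange), lowest-value regions of genes with higher regions (orange dashed), higher regions of those genes (green dashed) and all other regions (grey). The medians are 5059 nt for genes with only lowest-value regions and 1604 nt for all other regions, while in shared genes the lowest-value regions have 1268 nt and the higher ones 2062 nt.

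The 61 lowest-value regions outside annotated genes were partly grouped. A group of 6 lay on chromosome 16 between 49913172 and 49914258, from 669 to 1740 nt past the 3′ end of Cd47, the membrane ligand of the receptor SIRP alpha. A further lowest-value region lay inside Cd47, 96 nt from its end. Between them, 2 regions past the gene end had 29 and 26 at 680 s, 2.6 mW and 4.2x Dazl, and beyond the group 3 regions 2199 to 2387 nt past the end had 26, 23 and 24. The block was thus flanked by higher regions on both sides, as in Selenoi.

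The largest group, of 7 regions, lay on chromosome 17 between 17521515 and 17525582. The nearest of them was 2141 nt past the 3′ end of Lnpep, an aminopeptidase of insulin-responsive vesicles named here after its values were seen. A whole-multiple region at 6 lay beyond the group. Inside Lnpep, the 12 regions within 5000 nt of the group had 18 to 116 at 680 s, 2.6 mW and 4.2x Dazl. In regions shared by overlapping genes, 4 lowest-value regions lay in Colgalt1 and Unc13a on chromosome 8, between 71624654 and 71624888, and 3 in 4430402I18Rik and Plpp6 on chromosome 19, between 28964104 and 28964264. Without strand, these could not be given to 1 gene.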

How the data were processed

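KIN-CLIP coverage was read from 12 deposited files, 1 per condition, each with intervals and a whole-number value but no header and no strand. The values are a score, normalized coverage, as named by the authors. FastQC, Bowtie2 and the mm10 build are named, per the submitters' processing notes, without versions. The sources used here do not give how reads were counted, normalized and turned into sites, so the depth in reads is unknown and no counting interval is given.

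Listed intervals of the pooled libraries with gaps of up to 10 nt were joined (Python 3.11.15, pandas 2.3.3) into 8338 regions, each present in all 12 libraries, and width times value was summed. Regions were placed by the RefSeq gene spans of GRCm38.p6, in 1 gene (7593) or in 1 protein-coding gene among several (245). The 8 libraries of 30 s and 180 s were fitted with limma 3.58.1 (R 4.3.3) on log2(value + 1), with additive terms for Dazl level, laser power and time, trended and robust eBayes, 4 residual and a median of 4.42 prior degrees of freedom, and Benjamini-Hochberg adjustment at 0.05. The code was tested on simulated data. No filter on low values was used.

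Named genes are the 10 with the most lowest-value regions, the 10 of highest mean coverage that hold one, the 10 with the most regions all of which are such, up to 3 per gene list, those nearest to and farthest from another region, the deepest 5, and the called regions of largest fold. One of the deepest is not reported here. The sequences of the rule's 17-nt regions were not read, and regions in promoter windows are shown instead. The regions and lists were chosen with earlier results of these data known. Alternatives were other joining distances, widths and thresholds, another pseudocount, a filter on low values, equal medians, pairs of matched libraries as a block, and each library left out.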

Additional observations from a re-analysis of the deposited data

How the results depend on the processing

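The count of 819 lowest-value regions was 21 when only touching intervals were joined and 374 among regions exactly 17 nt wide. It was 703 with intervals joined at up to 50 nt and 842 with values up to 1 above the lowest. The 412 genes with only such regions became 387 with regions in exactly 1 gene and 381 with the wider joining. The difference in distance to the nearer gene end, -315 nt, was -318 and -334 under the other alternatives and reversed to 702.5 nt among 17-nt regions. The cause was not tested. With libraries scaled to equal medians, limma called 836 regions for laser power (167 higher, 669 lower), against 6452 (all higher), and 410 for Dazl level (157 higher, 253 lower), against 4841. The lowest-value regions called for laser power became 127, all lower, which follows from scaling by medians that left these regions out. Without each library in turn, calls over all regions ran from 5087 to 6439 for laser power and from 2294 to 4992 for Dazl level. The 3 lowest for Dazl level were 2294 without 180 s, 2.6 mW and 4.2x, 2897 without 180 s, 1 mW and 1x, and 2967 without 180 s, 1 mW and 4.2x. Over lowest-value regions the counts ran from 142 to 252 and from 6 to 114. A filter on a mean of at least 5 left 5816 regions and 0 lowest-value regions. Pairing the libraries that differ only in the tested factor, chosen after seeing the data, gave 6222 calls for laser power and 4108 for Dazl level, of which 228 and 17 were lowest-value regions. No pairing by replicate number was made because each condition had 1 library.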
